A study of Rattus norvegicus with 6 samples.

Results

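The genes of the mitochondrial ribosomal proteins were taken as the rows of the deposited count table whose symbol began with Mrpl or Mrps followed by a digit, pseudogenes left out. The rule found 75 of 26126 entries, 45 for the large subunit (Mrpl) and 30 for the small subunit (Mrps), assigned by symbol alone. No measured value entered that rule, although earlier results of these data were known when it was chosen. The RNA came from H9c2, a myoblast line of embryonic rat heart, kept in medium with 10% serum. Both groups went through simulated ischemia-reperfusion, in which cells were held in an acidic buffer (Esumi buffer, pH 6.2) with 2-deoxyglucose and lactate under nitrogen with 5% carbon dioxide, in a chamber flushed for 30 min and then sealed for 1.5 to 3.5 h. The same range of hours is given for every library, so the sealed time of each library is not known. The groups were 3 control libraries, which carried the control adenovirus, and 3 PERK libraries, which carried the adPERK adenovirus and which the design text calls PERK overexpression. The promoter that drives the PERK transgene, the virus dose and the time after infection are not stated in the labels, and nothing in the labels says that replicates were separate cultures, so the tests measure the spread between these libraries.

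The mitochondrial ribosome makes the few proteins that mitochondrial DNA encodes, all of them parts of the respiratory chain and ATP synthase. Its ribosomal RNAs come from mitochondrial DNA, while its proteins are made from nuclear genes in the cytosol and imported, so the genes described here are nuclear. The small subunit reads the messenger RNA and the large subunit joins the amino acids and anchors the particle to the inner membrane. Many of its proteins have bacterial counterparts, most of which share their numbers, and others are not found in bacteria. PERK, encoded by Eif2ak3, phosphorylates eIF2 alpha and lowers translation in the cytosol. The series title asks how this stress response is coupled to mitochondrial translation, and the comparison here concerns the RNA of the ribosome's own proteins.

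Total counts per library ranged from 77923398 to 119087414, and the 75 genes together took 0.178% to 0.185% of them. Control replicate 3 stood apart, with 19287 entries above 0 against 15377 to 16685 in the other libraries. Levels are given as CPM, the count of a gene relative to its library's scaled total and not divided by gene length. Eif2ak3, the gene of PERK, had 26.4, 26.9 and 24.0 CPM in the control libraries (replicates 1, 2 and 3, the order used throughout) against 26.5, 26.5 and 26.0 CPM in the PERK libraries. These groups overlapped (edgeR adjusted p = 0.887), so its level gives no check of which libraries carried adPERK, and all directions of change rest on the labels alone; whether the count includes the transgene was not tested. Of 6 cardiac muscle markers, Myh6, Myh7, Nppa and Tnni3 stayed under 1 CPM in all 6 libraries, and Tnnt2 and Actc1 did not. The myogenic factors Myod1 and Myog, known from skeletal muscle, reached 73.7 to 88.2 CPM and 390 to 493 CPM. Of the other skeletal myoblast markers, Myf5 was at 0 CPM in all 6 libraries. Des stood at 4.78 to 5.98 CPM, Chrna1 at 8.75 to 11.6 CPM and Tnnt1 at 53.0 to 61.7 CPM. The summed skeletal myoblast markers were at 630 to 648 CPM in control and 540 to 561 CPM in PERK libraries. Most of that sum was Myog, at 474 to 493 CPM in control and 390 to 408 CPM in PERK libraries. Of the cell type markers looked at, only Myog passed an edgeR adjusted p of 0.05, against 0.421% of all tested entries. Tnnt1 went the other way, with 53.0 to 55.6 CPM against 56.1 to 61.7 CPM. The groups of Myod1, Des and Chrna1 overlapped. The summed fibroblast markers were at 25250 to 26607 CPM in control and 26687 to 27762 CPM in PERK libraries. Nearly all of this was Col1a1 and Col3a1, while Thy1 had overlapping groups and Pdgfra stayed under 1 CPM. The epithelial sums did not overlap either, at 48.7 to 52.8 CPM in control and 53.2 to 54.3 CPM in PERK libraries. Nor did the low endothelial sums, at 1.29 to 1.99 and 0.638 to 0.919 CPM. The cardiac and leukocyte sums overlapped. The part of these markers in the values of the ribosomal genes was not tested.

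Short upstream stretches of 4 members are shown because they carry a match to the letters bound by NRF1, a transcription factor known for the nuclear genes of mitochondria. They are from the RefSeq promoter windows of assembly GRCr8 (250 bases before to 50 bases after a start), written 5′ to 3′ on the gene's strand, with the NRF1 match (GCGCA, any base, then GCGC, on either strand) and, in Mrpl57, an ETS family match CCGGAAG in capitals. They lie at chr1:169575727-169575772 (minus strand, Mrpl17), chr9:88554900-88554945 (plus, Mrpl44), chr15:36086421-36086456 (plus, Mrpl57) and chr20:2842968-2843005 (plus, Mrps18b).
Mrpl17: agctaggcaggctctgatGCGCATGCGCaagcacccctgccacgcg
Mrpl44: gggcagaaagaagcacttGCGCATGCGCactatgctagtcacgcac
Mrpl57: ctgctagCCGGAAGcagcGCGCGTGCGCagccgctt
Mrps18b: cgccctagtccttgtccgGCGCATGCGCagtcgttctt

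A window was at hand for 59 of the 75 members. The NRF1 letters were in the windows of 8 of these 59 genes (13.6%), against 4.82% of 27457 genes with a window and 10.4% of the 9654 that were tested here. The ETS letters were in 20 (33.9%, against 9.63% and 17.8%). The letters AANATGGC, read by the factor YY1, were in 22 (37.3%, against 7.80% and 10.7%). The letters TGATGNAA, a form of the element that ATF4 binds with C/EBP partners, were in 2 (3.39%, against 4.16% and 2.13%). TATAAA was in 8 (13.6%, against 15.3% and 7.75%). Motifs were searched on both strands, matches of different motifs could overlap, and a match is a description of the letters alone.

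No mitochondrial ribosomal protein gene passed the test between PERK and control libraries. Of the 75 members, 74 passed the low-count filter, and 0 of these passed edgeR's quasi-likelihood test at a Benjamini-Hochberg adjusted p of 0.05, against 0.421% of the 14488 entries tested. DESeq2 and limma voom also called 0 members, against 2.71% and 0.759% of entries. An unadjusted edgeR p under 0.05 was found for 4 of the 74, which is 5.41%, against 11.2% of all entries tested. The authors' deposited table lists 0 members with an adjusted p under 0.05, against 2.27% of its entries, the lowest being 0.111, for Mrpl46. In bulk RNA, fewer cells of a type and less RNA per cell cannot be told apart. Without control replicate 3, the library that stood apart, 0 members passed as well, with 4 at an unadjusted p under 0.05.

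Most fold changes were close to 0 in both subunits. The 45 large subunit genes had a median log2 fold change (PERK against control) of -0.0068, with 19 above 0 and 26 below. The 29 tested small subunit genes had a median of -0.011, with 11 above 0 and 18 below, and all tested entries had a median of -0.0045. A log2 fold change smaller than 0.1 in either direction was found for 55 of 74 members, or 74.3%. The same held for 50.2% of all tested entries and for 61.6% of the 4858 entries between 9.62 and 42.0 CPM, the range that holds the middle 80% of the members' levels. The other members reached from -0.28 (Mrpl47) to 0.77 (Mrpl14).

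**Figure D1:**
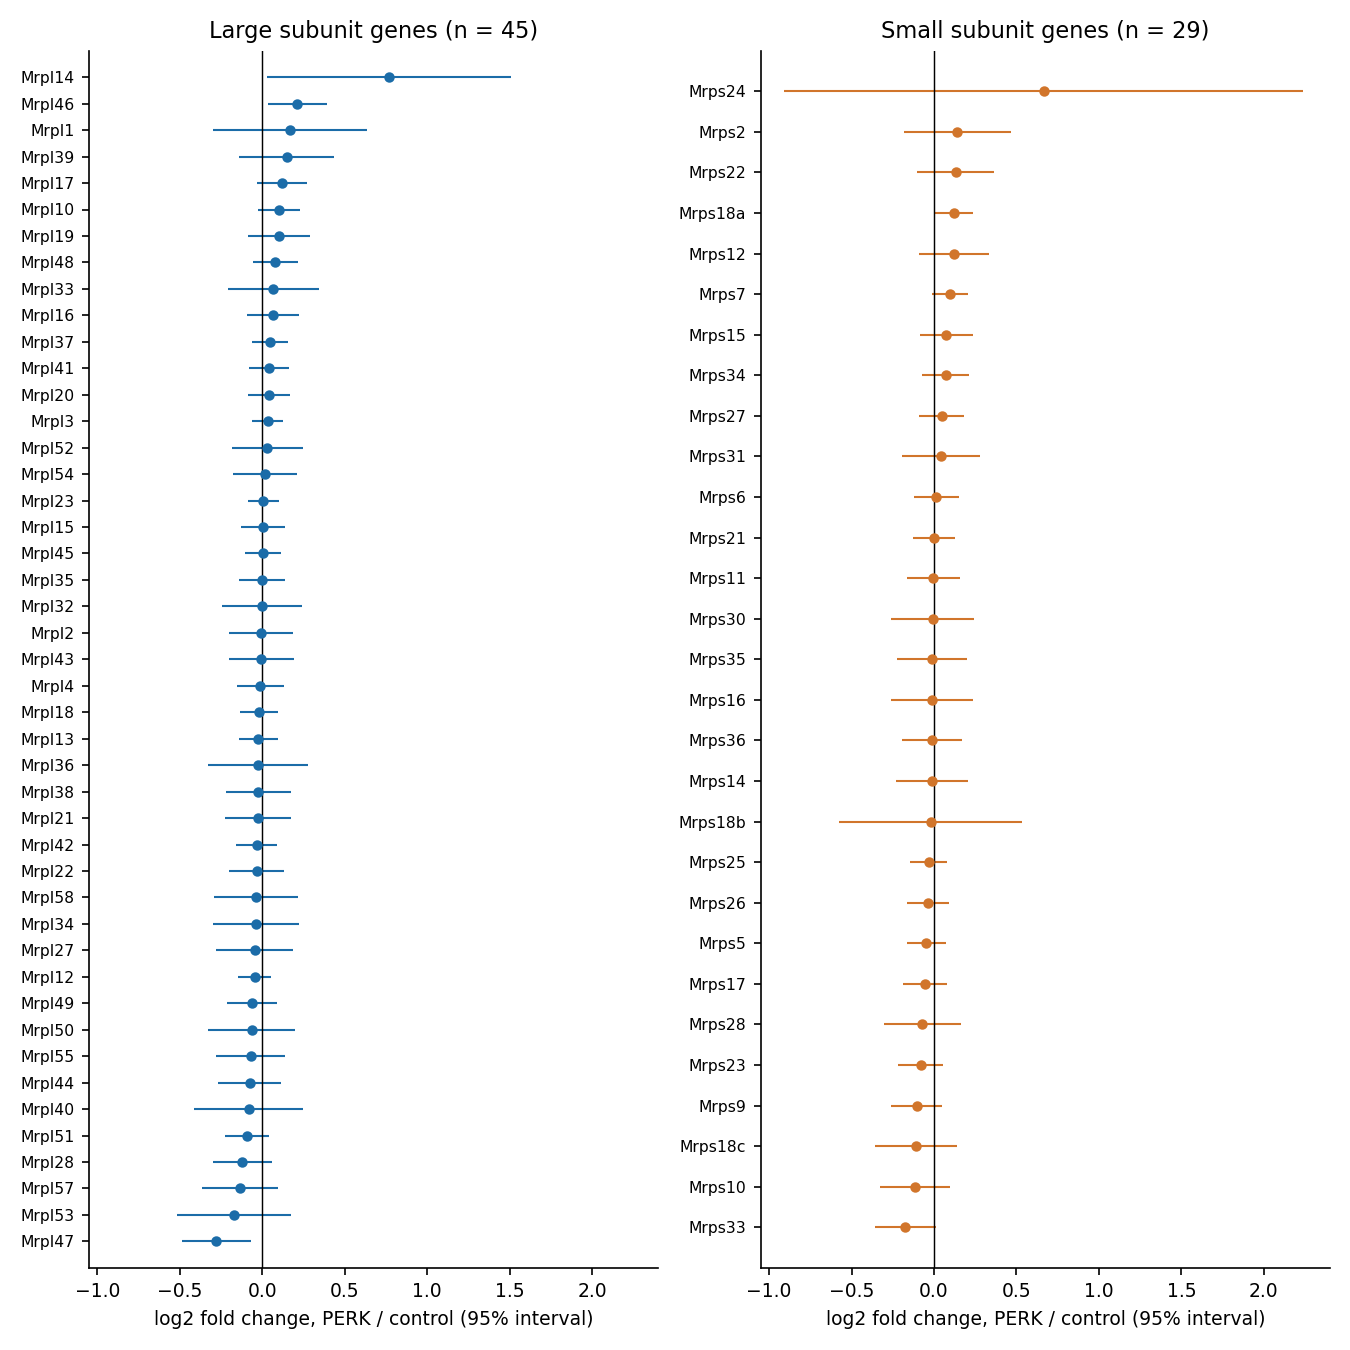
Log2 fold change of PERK against control for each tested large subunit gene (left, 45 genes) and small subunit gene (right, 29 genes), ordered by size; points are edgeR estimates and bars their 95% intervals. Most points lie within 0.1 of 0, and Mrpl14 and Mrps24 have intervals that run past 1.

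The intervals show what sizes of change the data leave room for. The 95% interval of the log2 fold change lay wholly between -0.3 and 0.3, a 1.23-fold change in either direction, for 54 of 74 members (73.0%, against 44.8% of all tested entries and 64.3% of those at similar levels). It lay between -1 and 1 for 72, and the other 2 were Mrpl14 and Mrps24. In counts simulated on these libraries, edgeR called 3 of the 50 genes given a 1.2-fold change. It called 33 of the 50 given 1.5-fold and 46 of the 50 given 2-fold. Most 1.2-fold shifts of a single gene were thus missed in the simulation. The simulated spread followed the trend over all genes, not each gene's own, and each count was drawn as an independent fragment. Only genes at 5 CPM or more were changed, so these shares need not hold for the real counts.

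**Figure D2:**
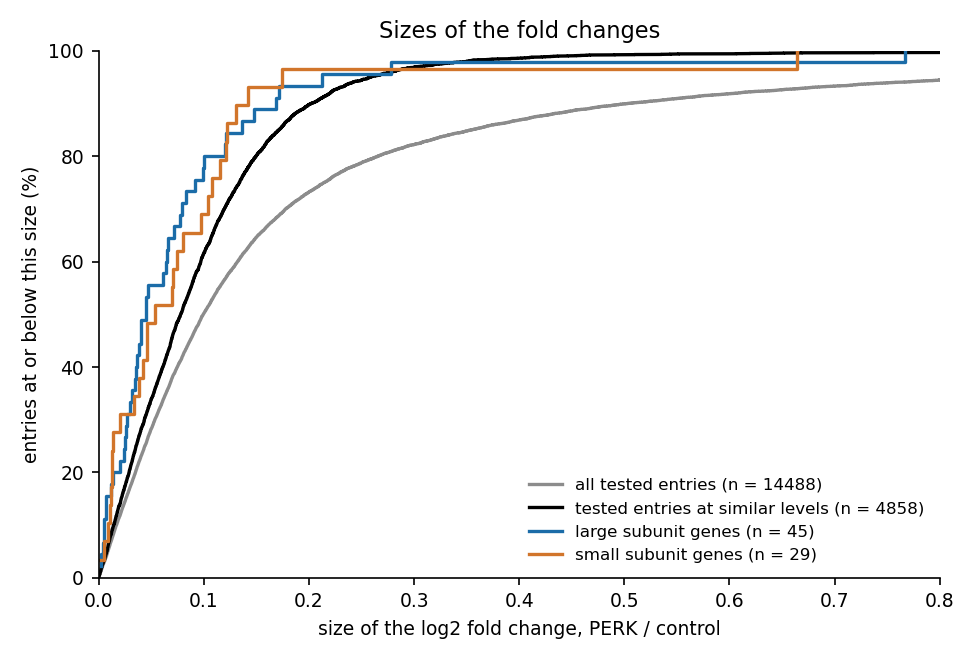
Share of entries (vertical axis, percent) whose log2 fold change is no larger in size than the value on the horizontal axis, for large subunit genes, small subunit genes, all 14488 tested entries and the 4858 tested entries at similar levels. Both subunit curves lie above the curve of all tested entries at sizes of 0.1 and 0.2, and each ends with 1 gene above 0.6.

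The summed level of the members differed little between libraries. Large subunit genes summed to 1188, 1124 and 1124 CPM in control and to 1159, 1176 and 1129 CPM in PERK libraries, or 1146 ± 36.8 and 1155 ± 24.0 CPM (SD, n = 3). Small subunit genes summed to 665, 633 and 658 CPM and to 667, 653 and 658 CPM, or 652 ± 17.0 and 659 ± 6.86 CPM (SD, n = 3). The groups overlapped in both sums. The ratio of the large to the small sum was 1.76 ± 0.0432 in control and 1.75 ± 0.0442 in PERK libraries (SD, n = 3). These sums weigh long and abundant transcripts most, since counts were not divided by gene length, and for the same reason no gene's level is read against another's.

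Among large subunit proteins numbered within the bacterial set, Mrpl17, whose bacterial counterpart lies near the exit tunnel, had 101, 89.1 and 89.7 CPM in control and 94.5, 106 and 104 CPM in PERK libraries. These values overlapped (log2 fold change 0.12, SE 0.07). Mrpl12 belongs to the stalk that recruits translation factors and is also known to bind the mitochondrial RNA polymerase. Its levels were 58.1, 59.1 and 58.9 CPM in control and 58.5, 56.9 and 54.9 CPM in PERK libraries (log2 fold change -0.05, SE 0.04). Mrpl10, which holds Mrpl12 in the stalk, stood at 26.1 to 28.2 CPM in control and 28.5 to 31.0 CPM in PERK libraries without overlap, and did not pass the test (log2 fold change 0.10, edgeR adjusted p = 0.53). Mrpl13 ranged from 50.1 to 55.7 CPM over both groups, and Mrpl3, next to the peptidyl transferase centre, from 30.5 to 31.7 CPM. The 24 tested members of this class had a median log2 fold change of -0.0029.

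Large subunit proteins numbered above the bacterial set, which ends at 36, form a class by number alone. Their 21 genes had a median log2 fold change of -0.03, between -0.28 and 0.21. Mrpl46 had 13.0, 13.6 and 12.5 CPM in control and 14.4, 15.1 and 15.7 CPM in PERK libraries. Every PERK library was above every control library (log2 fold change 0.21, SE 0.08, edgeR adjusted p = 0.357). Mrpl47 had 14.9, 14.5 and 13.9 CPM in control and 12.5, 12.4 and 10.7 CPM in PERK libraries. Here every PERK library was below the controls (log2 fold change -0.28, SE 0.09), and the edgeR adjusted p of 0.287 was the lowest among the members. Mrpl53 (log2 fold change -0.17) and Mrpl57 (-0.14) had the next lowest values among large subunit genes, with edgeR adjusted p of 0.734 and 0.666. In Mrpl53 control replicate 2 stood at 12.4 CPM and the other 5 libraries between 8.31 and 9.10 CPM, and without that library the log2 fold change was 0.02. Mrpl39 ranged from 11.8 to 17.0 CPM (log2 fold change 0.15). Mrpl44, an RNase III-like protein whose upstream stretch is shown above, had 21.6, 20.6 and 18.5 CPM in control and 17.7, 20.4 and 19.4 CPM in PERK libraries (log2 fold change -0.08, SE 0.08). Mrpl54 had overlapping groups, at 52.9 ± 6.27 and 53.4 ± 3.11 CPM (SD, n = 3).

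**Figure D3:**
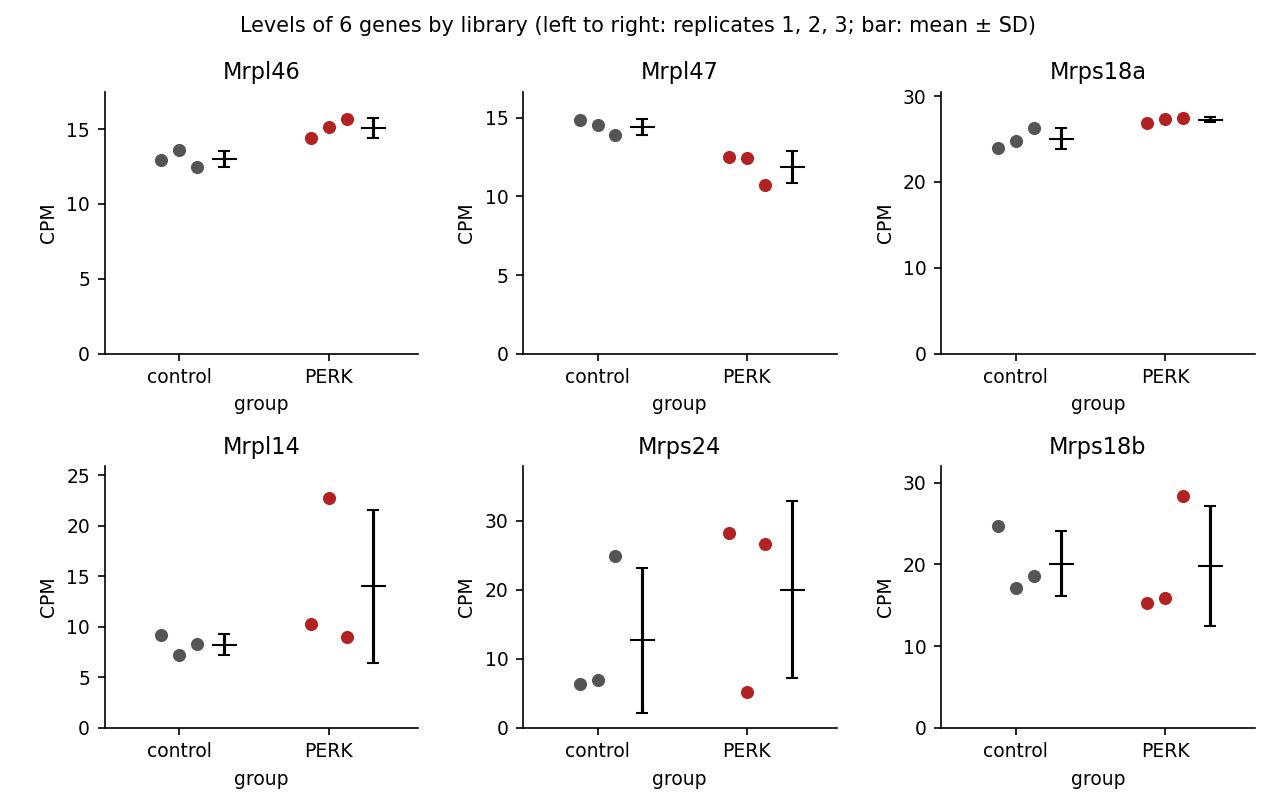
CPM in each library for 6 members, with replicates 1 to 3 from left to right and a bar for the mean ± SD of 3 libraries. Mrpl46, Mrpl47 and Mrps18a have groups that do not overlap, while Mrpl14, Mrps24 and Mrps18b vary more within a group than between groups.

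Small subunit proteins numbered within the bacterial set (16 tested) had a median log2 fold change of -0.0085, between -0.12 and 0.14. Mrps6 had 47.7, 47.4 and 51.9 CPM in control and 51.1, 51.3 and 45.9 CPM in PERK libraries (log2 fold change 0.01, SE 0.06). Mrps17 had 37.2 ± 1.49 and 35.8 ± 2.31 CPM, and Mrps5 30.4 ± 0.805 and 29.5 ± 1.53 CPM (SD, n = 3), and the groups overlapped for both. Mrps12, a protein of the decoding centre, had a log2 fold change of 0.12 (SE 0.09). Mrps7 stood at 25.1 to 26.5 CPM in control and 26.7 to 28.2 CPM in PERK libraries, and Mrps10 at 9.10 to 9.42 and 7.97 to 8.86 CPM. Neither of these passed the test, although their groups did not overlap (edgeR adjusted p = 0.489 and 0.703). Small subunit proteins numbered above the bacterial set (13 tested) had a median of -0.011. Of these, Mrps26 ranged from 30.9 to 35.2 CPM, and Mrps33 had 20.8 ± 1.24 CPM in control and 18.4 ± 1.50 CPM in PERK libraries (SD, n = 3), with overlapping groups and a log2 fold change of -0.17 (edgeR adjusted p = 0.467).

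None of the 3 Mrps18 paralogues passed the test. Structures of the mammalian particle place Mrps18a in the large subunit despite its name (it is counted here with the small subunit, by symbol), and Mrps18b and Mrps18c in the small subunit. All members were counted by symbol, and the places of the others were not checked. The medians, sums and ratios by subunit are therefore by name. Mrps18a had 24.0, 24.8 and 26.3 CPM in control and 26.9, 27.3 and 27.4 CPM in PERK libraries. Its groups did not overlap (log2 fold change 0.12, SE 0.05, edgeR adjusted p = 0.415). Mrps18c had 10.5, 12.5 and 13.4 CPM in control and 11.4, 10.8 and 11.7 CPM in PERK libraries (log2 fold change -0.11, SE 0.11). Mrps18b, whose upstream stretch is shown above, had 24.7, 17.1 and 18.6 CPM in control and 15.3, 15.9 and 28.3 CPM in PERK libraries. One library of each group, control replicate 1 and PERK replicate 3, was high, and the log2 fold change was -0.02 (SE 0.24).

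Across all members, groups did not overlap for 6 of 74, 4 higher and 2 lower in PERK libraries. Among all entries tested this held for 18.2%, 9.66% higher and 8.55% lower, and for the members it was 8.11%. The 4 were Mrpl10, Mrpl46, Mrps7 and Mrps18a, and the 2 were Mrpl47 and Mrps10.

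Mrps24 and Mrpl14 varied more than 2-fold within a group. Mrps24, the counterpart of bacterial ribosomal protein uS3 despite its number, had 6.31, 6.87 and 24.9 CPM in control and 28.2, 5.21 and 26.7 CPM in PERK libraries. Libraries thus stood either between 5.21 and 6.87 CPM or between 24.9 and 28.2 CPM, with both levels in each group. Its log2 fold change of 0.66 (SE 0.68, edgeR adjusted p = 0.781) became 1.61 without control replicate 3, 1.12 without PERK replicate 2, and 0.34 to 0.40 without any other single library. Mrpl14, a large subunit protein at the face that meets the small subunit, had 9.20, 7.19 and 8.32 CPM in control and 10.3, 22.7 and 9.03 CPM in PERK libraries. PERK replicate 2 alone was high, and without it the log2 fold change fell from 0.77 (SE 0.32, edgeR adjusted p = 0.424) to 0.23. The highest library was at least 2 times the lowest of its group for 2 of 74 members (2.70%) and at least 1.5 times for 4 (5.41%), the other 2 being Mrps18b and Mrpl1. Among all tested entries these shares were 13.2% and 23.0%, and among the 4858 entries at similar levels 0.906% and 2.51%. The cause of the differences within groups was not tested. Without Mrpl14, Mrps18b and Mrps24, which were chosen after their values were seen, the ratio of the large to the small sum was 1.84 ± 0.0224 in control and 1.84 ± 0.0161 in PERK libraries (SD, n = 3).

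**Figure D4:**
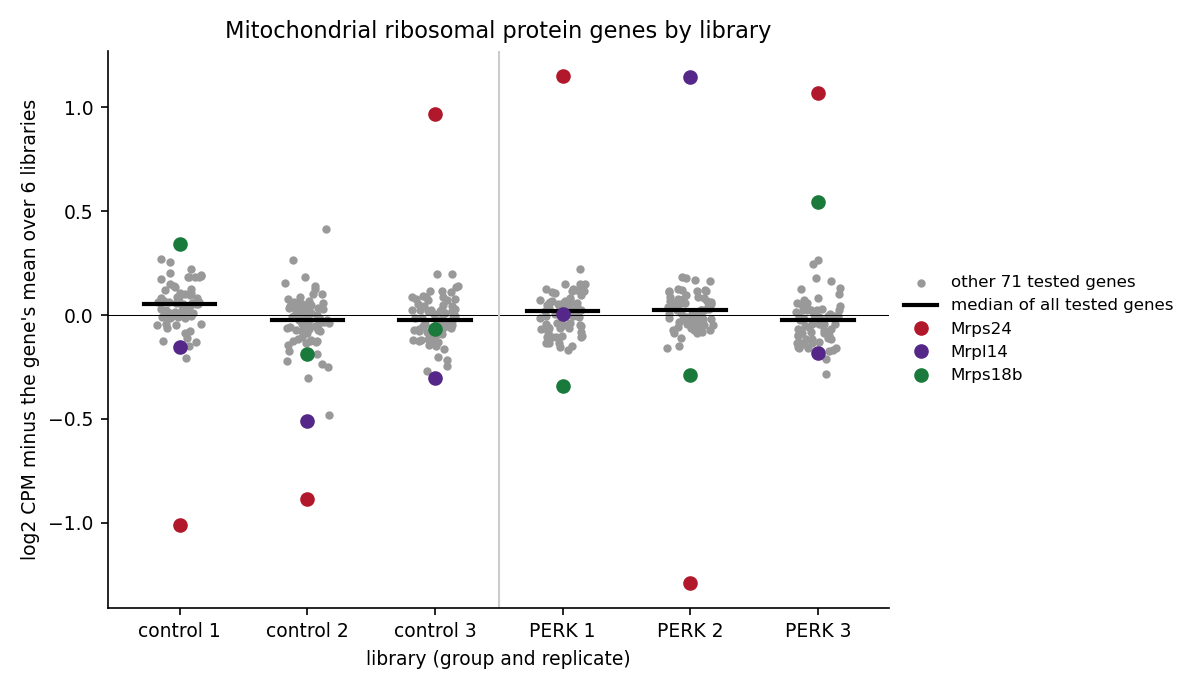
Each point is a tested member's log2 CPM minus its own mean over the 6 libraries, by library, with the black line at the median of the 74 genes. The medians lie between -0.03 and 0.05, while Mrps24 lies far from its mean in all 6 libraries and Mrpl14 is highest in PERK replicate 2.

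Members with a known role outside the usual particle had overlapping groups too. Mrpl58, a peptidyl-tRNA hydrolase that frees stalled chains, had 16.2 ± 1.55 CPM in control and 15.8 ± 1.94 CPM in PERK libraries (SD, n = 3). Mrps36, listed in RefSeq as Kgd4 and known as a subunit of the alpha-ketoglutarate dehydrogenase complex, had 18.5 ± 1.49 and 18.4 ± 0.956 CPM (SD, n = 3). Mrps21l did not pass the low-count filter, with 11 counts in control replicate 1 and 0 in the other 5 libraries. Its symbol fits the rule, and its reads were too few for any comparison.

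Several members shared a starting region with a neighbour. By RefSeq's annotation, 13 of 59 members (22.0%) had a protein-coding neighbour on the other strand that started within 500 bases, head to head, against 9.64% of tested genes and 6.06% of all protein-coding genes with a window. Mrpl46 and Mrps11 form such a pair, with 233 bases between their starts, and their log2 fold changes were 0.21 (SE 0.08) and -0.0051 (SE 0.07). Mrpl47 starts 243 bases from Ndufb5, a complex I subunit, with log2 fold changes of -0.28 (SE 0.09) and -0.08 (SE 0.05). The differences within these pairs were not tested. None of the 11 neighbours that are not members passed the test, against 0.421% of all tested entries. Eme1, a DNA repair endonuclease subunit that starts 43 bases from Mrpl27, had -0.41 (SE 0.12, edgeR adjusted p = 0.223).

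Some members cannot be counted without doubt. RefSeq lists 34 pseudogenes or further copies named after 23 members, among them Mrpl17, Mrpl46, Mrpl47, Mrps18b and Mrps36. The spans of 16 members overlap another protein-coding gene, including Mrpl14 with Tmem63b and Mrpl47 with Ndufb5 and Actl6a. Whether reads were shared was not tested, and the values of these genes are uncertain to that extent.

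Proteins of the particle that carry other names had overlapping groups as well. Dap3, a GTP-binding small subunit protein, had 40.6 ± 1.78 and 41.8 ± 1.72 CPM, and Gadd45gip1, a large subunit protein, 52.5 ± 2.83 and 53.1 ± 1.39 CPM (SD, n = 3). The pentatricopeptide protein Ptcd3 and Chchd1 had log2 fold changes of 0.01 and -0.07. Of these 4, 0 passed the test, against 0.421% of all tested entries. Entries spelled in lower case, which the rule leaves out, were mrpl24 (0.11), mrpl9 (0.04) and mrpl11 (-0.07), and none of the 3 passed the test.

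The factors that work with the ribosome did not pass the test either. Over all tested entries 0.421% passed, so 0 calls in lists this short are near that share. Of 15 translation factors and messenger RNA partners 0 were called, with a median log2 fold change of -0.03. Tufm, the elongation factor that brings transfer RNA, had 65.8, 68.8 and 64.4 CPM in control and 69.3, 71.3 and 73.1 CPM in PERK libraries without overlap (log2 fold change 0.10, edgeR adjusted p = 0.463). The elongation factor Gfm1 was at 0.12 (edgeR adjusted p = 0.495) and Lrpprc, which stabilises mitochondrial messenger RNA, at -0.0056. Of 26 tested assembly and ribosomal RNA modification genes 0 were called (median 0.0078, 14 above 0 and 12 below). Mrm1, a methyltransferase of the large ribosomal RNA, had 8.37, 8.55 and 8.24 CPM in control and 10.2, 10.9 and 10.6 CPM in PERK libraries. Its groups did not overlap, and it did not pass over all entries (log2 fold change 0.33, SE 0.09, edgeR adjusted p = 0.204). Malsu1, an assembly factor of the large subunit, was at -0.23 (edgeR adjusted p = 0.467), and the RNA helicase Dhx30 and the protease subunit Spg7 were at -0.02 and 0.03.

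Of 6 mitochondrial transcription genes 0 were called, against 0.421% of all tested entries. Tfam, which packages mitochondrial DNA and starts its transcription, was at -0.09, Tfb2m at -0.03 and Tefm at 0.14. Of 11 tested transcription factors tied to mitochondrial or stress genes 0 were called, against the same share of all tested entries. Their median log2 fold change was 0.034, with 6 above 0 and 5 below, between -0.22 and 0.32. Esrra, a nuclear receptor of energy metabolism, had 35.4 ± 0.863 CPM in control and 38.0 ± 0.983 CPM in PERK libraries (SD, n = 3), without overlap (log2 fold change 0.10, edgeR adjusted p = 0.405), and Atf5, a factor of the mitochondrial stress response, was at 0.07. Atf4, the main factor translated when eIF2 alpha is phosphorylated, had 413, 414 and 400 CPM in control and 458, 461 and 432 CPM in PERK libraries. Its groups did not overlap; its log2 fold change was 0.14, and it passed with DESeq2 (adjusted p = 0.00597) but not with edgeR (adjusted p = 0.19). The mitochondrial ribosomal RNAs were not analysed here.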

How the data were processed

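RNA sequencing of 6 libraries (3 control, 3 PERK) was used. The authors deposited estimated counts per entry as whole numbers, used as deposited, beside their log2 fold changes, p-values and adjusted p-values. Bowtie 0.12.2 and mm9, a mouse build, appear in the submitters' processing notes, while the samples are rat; the counting program is not given in the labels or file headers. Low counts pile up near multiples of about 6, with 1798 values at 6 and 1968 at 7. A smaller peak, of 1447 and 1429 values, lies at 3 and 4. Independent fragments may thus be fewer than counts. A second deposited table, whose 6 per-sample columns match no label, was not used. edgeR 4.0.16 (R 4.3.3) used filterByExpr (minimum count 10), TMM and a quasi-likelihood fit with group as its term, adjusted over 14488 entries by Benjamini-Hochberg. Standard errors came from the fold change and F. DESeq2 1.42.0, limma 3.58.1, other scalings and filters, a replicate block and leaving out each library were alternatives. Same-numbered libraries correlated at -0.0631, 0.0114 and 0.029 in their deviations from group means, so numbers were not taken as pairs. Steps were tested on simulated data (14105 genes, 135 calls, 3 false). RefSeq GRCr8 tables gave names (75 members matched, 74 by symbol and Mrps36 by synonym), neighbours and promoter windows.

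Members, lists and tests were chosen with earlier results of these data known. Named members were the 4 highest in CPM per subunit (used only to choose names, without length correction), the 4 highest and 4 lowest fold changes at 5 CPM or more, those with unadjusted p under 0.05, the 3 with the largest variation within a group, the untested member, the Mrps18 paralogues, and Mrpl12, Mrpl58 and Mrps36. Others (Mrpl1, Mrpl3, Mrpl10, Mrpl44, Mrps7, Mrps10, Mrps11, Mrps12, Eme1) were chosen after their values were seen. From each partner list, called genes or else the 2 smallest p-values, and the 2 highest in CPM, were named. Among cell type markers, 1 of 5 tested skeletal myoblast genes (Myog) was called, against 0.421% of all tested entries. Of the tested cardiac, endothelial, leukocyte, epithelial and fibroblast genes 0 were called.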

Additional observations from a re-analysis of the deposited data

How the results depend on the processing

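Over 15 alternatives, 0 members passed an adjusted p of 0.05, and 2 to 5 had an unadjusted p under 0.05. The replicate block, which the check of pairing did not call for, gave 0 members as well, with 5 at an unadjusted p under 0.05, and took the calls over all entries from 61 to 9. The call count over all entries was 392 with DESeq2, 110 with limma voom, 132 with the robust fit, 94 without a filter, 93 with counts divided by 6 and 12 to 38 with 1 library left out. The partner lists had 0 calls, and 1 with DESeq2, Atf4 (log2 fold change 0.14). The small subunit median was -0.039 to 0.033 with 1 library left out, at 0.033 without PERK replicate 3 and 0.032 without control replicate 1.

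Signs were checked only for the members, partner genes and lower case entries named by the rules above, not for the other members. With 1 library left out, 15 of their log2 fold changes took the other sign at least once. With all libraries these 15 lay between -0.17 (Mrpl53) and 0.04 (mrpl9), and none was past the test. Their ranges were -0.060 to 0.018 for Mrpl13, -0.27 to 0.017 for Mrpl53, -0.037 to 0.12 for Mrpl54, -0.14 to 0.038 for Mrpl58, -0.015 to 0.065 for Mrps6, -0.36 to 0.15 for Mrps18b, -0.074 to 0.0033 for Mrps26, -0.079 to 0.021 for Mrps36, -0.11 to 0.0024 for Chchd1, -0.071 to 0.043 for Dhx30, -0.014 to 0.061 for Gadd45gip1, -0.029 to 0.015 for Lrpprc, -0.044 to 0.11 for Ptcd3, -0.092 to 0.014 for Tfb2m and -0.013 to 0.13 for mrpl9. With limma voom Mrps36 was at 0.0071. The cause was not tested. Low counts that pile up at some values, an unknown number of independent fragments and 3 libraries a group limit the precision.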
